A study of Mus musculus with 8 samples.

Results

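A set of 47 genes of the cytoskeleton, the nuclear lamina and the focal adhesion was examined in lung endothelial cells of mice with an endothelial deletion of QPC, which belongs to complex III of the respiratory chain. The 47 genes are 2 actins, 17 actin-binding genes, 5 myosin and 4 tropomyosin genes, 8 tubulins, vimentin with 3 lamins, 3 genes of the ezrin family and 4 focal adhesion genes. They were chosen by symbol with the difference between knockout and wild type in view, from 43430 genes counted, and all 47 were among the 12689 genes with enough reads to be tested. Their fold changes below are therefore a description, and no test was made on the list. RNA was sequenced from 8 libraries, 4 of wild-type (WT) mice and 4 of mice with an endothelial deletion of QPC (KO), taken here as the product of Uqcrq. All were on the C57BL/6 background and at postnatal day 15, and the treatment text, which stands on WT and KO samples alike, gives tamoxifen, which activates the recombinase, from postnatal day 0 to day 4. Cells carrying CD31, an endothelial surface protein that platelets and some leukocytes also carry, were sorted from lungs. The sources used here do not give the promoter that drives the recombinase, the alleles of the WT mice or the number of animals behind a library. A p-value therefore reflects how far these 8 libraries scatter, some of which may be technical.

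Actin filaments give endothelial cells their shape, hold junctions together and, with non-muscle myosin, generate tension. Profilin hands monomers to growing filaments, the Arp2/3 complex branches them, actinins and filamin crosslink them, tropomyosins and calponins run along them, and cofilin with its partners takes them apart. In the lung this system sets how tightly the endothelium seals the capillaries. Microtubules are polymers of alpha- and beta-tubulin pairs, and cells mix several isotypes of each. A-type and B-type lamins line the inner face of the nuclear envelope, and focal adhesions tie the ends of actin bundles to integrins. Many actin-related genes are known targets of serum response factor (SRF), whose binding motif is called the CArG box.

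The shallowest library, WT replicate 3, held 6407924 counts and the deepest, KO replicate 4, 13981329, and the difference between the group means did not pass (exact two-sided permutation test, p = 0.114, where 4 against 4 cannot go below 0.0286). Uqcrq was at 26.3, 24.5, 26.8 and 31.5 CPM (CPM are counts scaled to a common library size) in WT libraries 1 to 4, and stood at 1.59, 15.6, 9.57 and 13.97 CPM in KO libraries 1 to 4. Every KO library was lower than every WT library, with 1 KO library far below the other three (log2 fold change -1.42, SE 0.53, edgeR adjusted p = 0.179, not past the threshold of 0.05). An exact two-sided permutation test of its mean CPM gave p = 0.0286, the smallest value that 4 against 4 allows. Markers of endothelium were abundant in every library, with a summed level of 14722 to 17463 CPM over 10 genes in WT and 12832 to 16585 CPM in KO. Of these 10 genes 2 were called lower in KO, Tek from 941 ± 134 to 583 ± 64.2 CPM (edgeR adjusted p = 0.00762) and Erg from 314 ± 46.1 to 197 ± 32.1 CPM (0.0231). Markers of other lung cells were present too and their ranges overlapped between the groups: 3400.3 to 20122 CPM in WT and 3328 to 14825 CPM in KO for 9 alveolar epithelial genes, 123 to 505 and 147 to 357 CPM for 10 smooth muscle and pericyte genes, and 396 to 1471 and 309 to 1323 CPM for 8 fibroblast genes. Of the fibroblast genes 1 was called lower, Mfap4, from 142 ± 15.4 to 58.2 ± 7.85 CPM (edgeR adjusted p = 0.000873). The part of these 3 marker changes in the results below was not tested. Leukocyte markers summed to 416 to 2019 CPM (WT) and 422 to 1504 CPM (KO) over 8 genes. Lyz2, which alveolar epithelium also expresses, gave 374 to 1999.7 CPM of it, with Ptprc at 0 to 9.37 CPM and Cd3e and S100a8 at 0 in at least 5 libraries. Over 6 mesothelial and airway genes the sums were 91.96 to 350.5 CPM in WT and 135 to 572 CPM in KO, and over 9 platelet and erythroid genes 34.8 to 99.6 and 58.3 to 118 CPM. In sorted bulk cells a change in RNA per cell and a change in the mix of cells cannot be told apart.

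Of the 47 genes, 22 were called higher in KO and 0 lower, and 0 were lower at an unadjusted p under 0.05 or called lower by DESeq2 or limma voom (edgeR quasi-likelihood test, Benjamini-Hochberg adjusted p below 0.05 over all 12689 genes). Over all genes tested 3.63% were called, 2.25% higher and 1.39% lower. Because the members were chosen on this contrast, the count is not read against that share. For 27 of the 47 all KO libraries lay above all WT libraries, as they did for 6.94% of all genes tested, and for 0 members all lay below (4.67% of all genes tested). The fitted change of the 22 ran from 1.59-fold to 4.11-fold, with adjusted p from 3.33e-05 to 0.0223. The median log2 fold change of the 47 was 0.65, beside 0.01 for all genes tested. The count depended on one correction. When a smooth trend of each library's counts on transcript length and GC content was removed, 5 of the 22 were still called (Actg1, Flna, Cnn2, Tubb6 and Lmna), all 22 kept their sign, and the calls over all genes fell to 159, 37.7% of them higher against 61.8% without the correction. That form also moved the scaling of the libraries, with a median log2 fold change of -0.10 over all genes. The SE was larger too for every member that lost its call, for example 0.21 against 0.12 for Actb and 0.22 against 0.12 for Cfl1. With each library's trend centred, a change made after the first outcome had been seen, all 22 were called. The calls named one by one below are those without this correction. Together the 47 genes took 2.15 ± 0.0712% of all counts across WT libraries and 3.36 ± 0.132% across KO libraries (mean ± SD, n = 4 each), and the actins alone 0.371 ± 0.0458% and 0.770 ± 0.0749%.

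**Figure D1:**
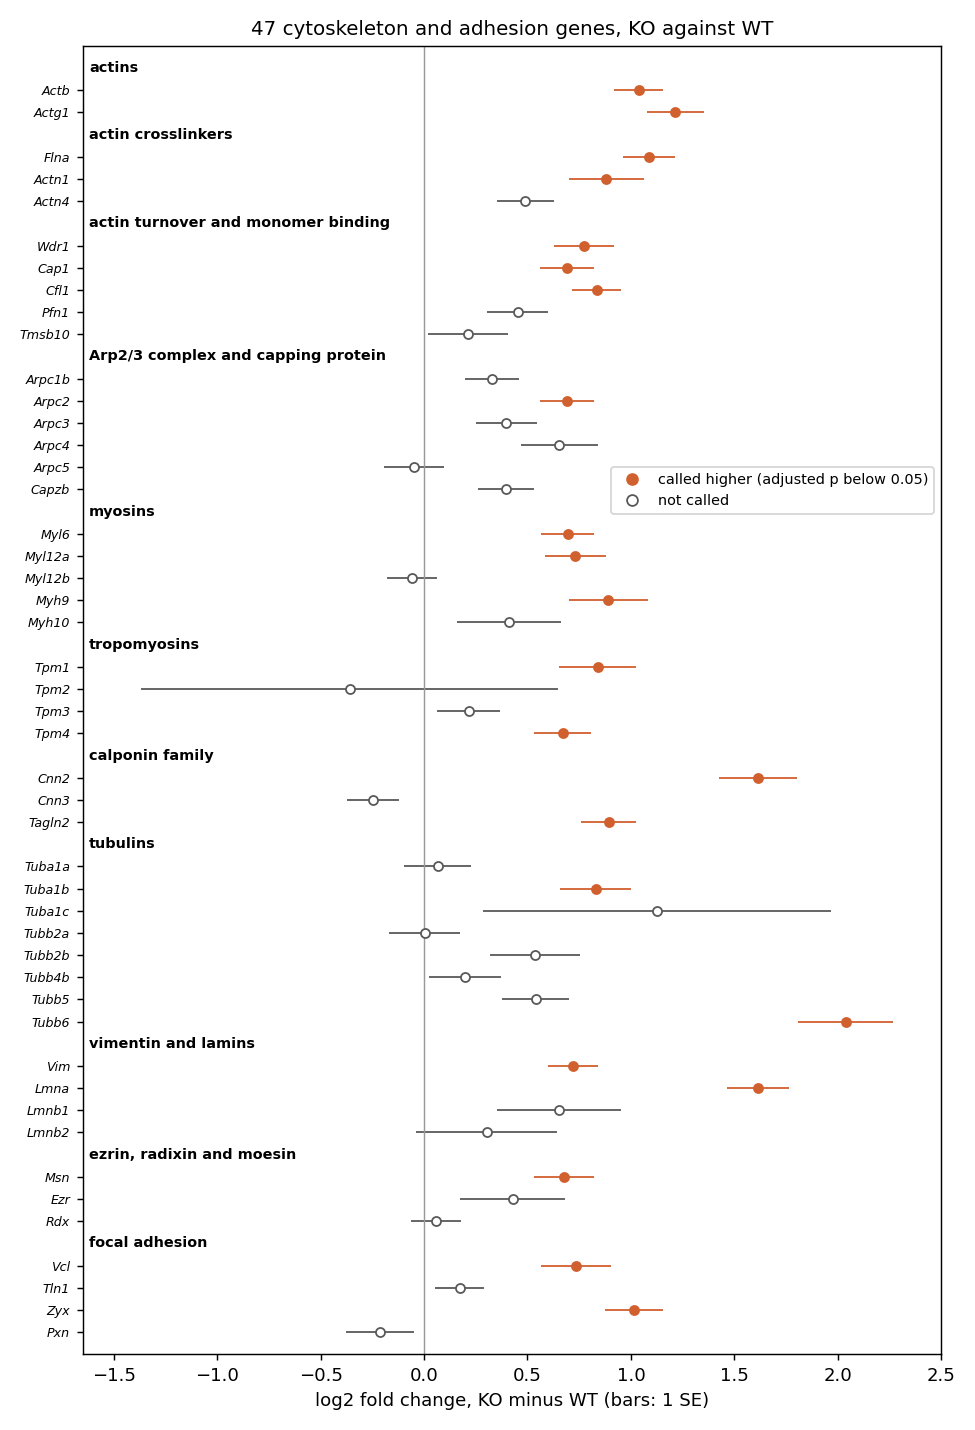
Fitted log2 fold change of each of the 47 genes, KO minus WT, with bars of 1 SE from edgeR over 4 libraries per group; filled points are the 22 called genes. Every class holds at least 1 called gene, and the largest changes are those of Tubb6, Lmna and Cnn2, at 2.04, 1.61 and 1.61.

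**Figure D2:**
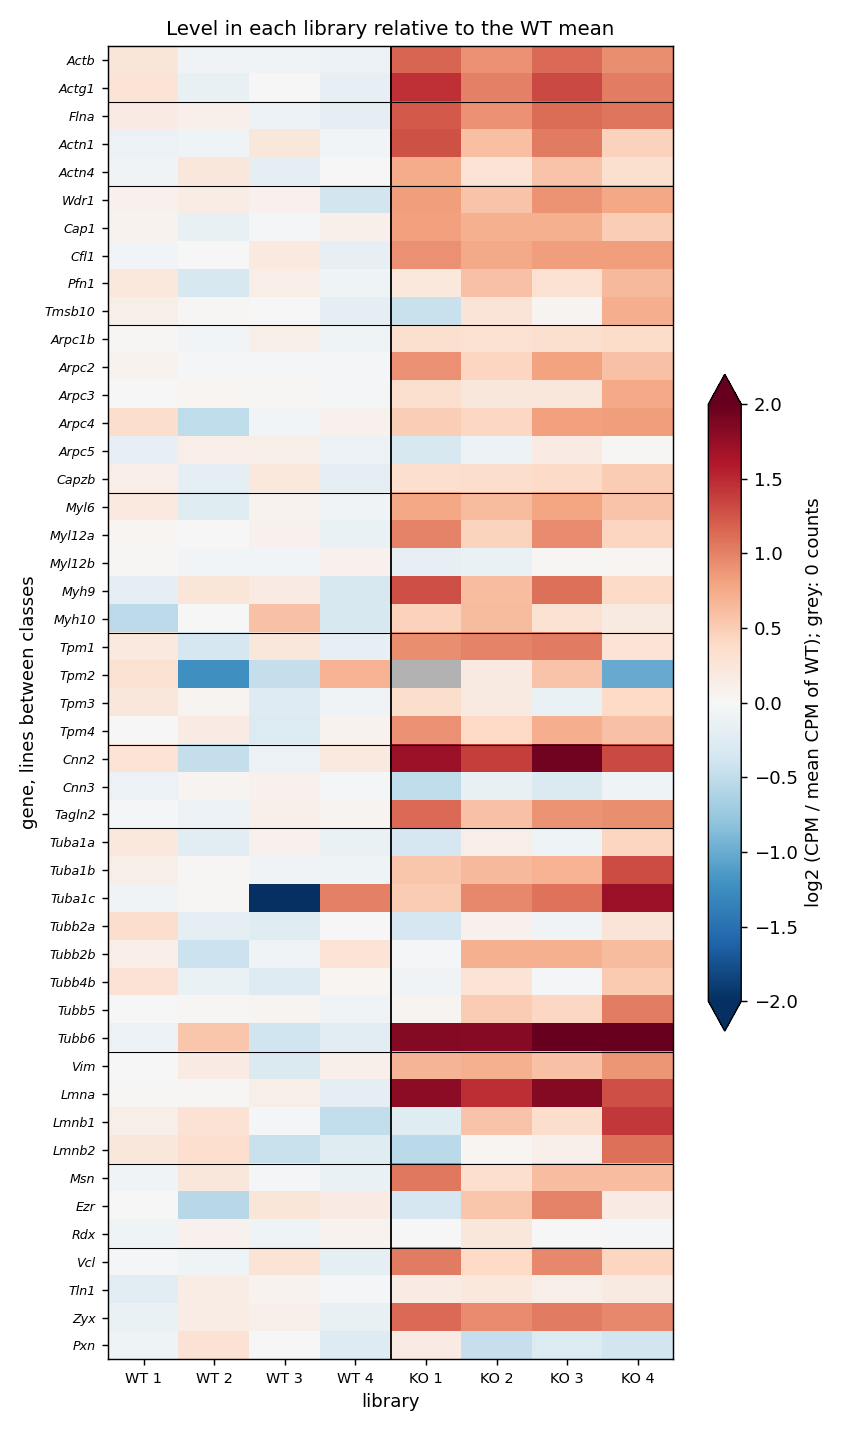
Level of each gene in each of the 8 libraries as log2 of the CPM over the WT mean, with classes separated by lines and grey for 0 counts. KO replicate 1 or 3 is the highest KO library for most called genes other than tubulins, and KO replicate 4 for the tubulins and B-type lamins in 9 of 10. KO replicate 4 is also the highest for 16 of the 25 members not called.

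Per kilobase of exon the cytoplasmic actins were the most abundant of the 47 genes in both groups. Actb, beta-actin, was at 2696, 2183, 2166 and 2100.2 CPM in WT libraries 1 to 4 and 5112, 4299, 5016 and 4339 CPM in KO libraries 1 to 4 (log2 fold change 1.04, SE 0.12). Actg1, gamma-actin, which differs from beta-actin by a few residues, was at 1652, 1232, 1372 and 1214 CPM in WT and 3749, 2746, 3428 and 2776 CPM in KO (log2 fold change 1.22, SE 0.14). Both were called higher, WT replicate 1 was the highest WT library, and KO replicates 1 and 3 stood above KO replicates 2 and 4. On that scale Actb held 853 CPM (WT) and 1751 CPM (KO), and Actg1 514 and 1194 CPM. The share of Actg1 in the sum of both actins per kilobase was 38.2, 36.3, 38.96 and 36.8% in WT and 42.5, 39.2, 40.8 and 39.2% in KO, so that the lowest KO share lay just above the highest WT share. Both genes have processed pseudogenes and share coding sequence, which makes the split of reads between them uncertain.

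The promoter of Actg1 is shown because it carries a CArG box close to the start site and the gene was among those called. The 250 bases before the start of Actg1, on the minus strand at chr11:120348496-120348745 of GRCm38.p6 (RefSeq), read as follows, with the box in capitals.
Actg1: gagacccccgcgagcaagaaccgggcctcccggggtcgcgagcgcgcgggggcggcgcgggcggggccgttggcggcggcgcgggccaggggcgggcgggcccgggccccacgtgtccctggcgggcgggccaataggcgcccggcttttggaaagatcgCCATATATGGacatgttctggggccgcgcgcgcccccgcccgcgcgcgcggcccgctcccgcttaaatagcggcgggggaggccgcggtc
Promoter windows of 300 bases, 250 before and 50 after the start, were at hand for 42 of the 47 genes, in 49 windows, and not for Actb, Tubb2b, Tubb6, Lmnb1 and Pxn. A CArG box, searched on both strands and matched without a mismatch, was found for 5 of the 42 genes (11.9%), against 1.58% of 9765 tested genes with a window and 1.63% of all 32851 windows. The 5 boxes are set side by side in the direction of transcription, with 10 bases on each side where the window holds them.
Actg1: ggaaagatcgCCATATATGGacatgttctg
Cnn2: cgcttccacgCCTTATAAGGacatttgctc
Myl6: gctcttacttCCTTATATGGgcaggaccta
Vcl: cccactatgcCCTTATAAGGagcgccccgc
Arpc4: CCTAATTTGGtgcccaacct
The first base of the box lies 90 bases before the start in Actg1, 56 in Cnn2, 50 in Myl6 (at the second of 2 annotated starts), 227 in Vcl and 250 in Arpc4. Cnn2 and Vcl hold the same 10 letters. The first 4 of these genes were called higher and Arpc4 was not. Of the 154 tested genes with a box anywhere in a window, these 5 included, 11 were called higher (7.14%) and 1 lower (0.649%), with a median log2 fold change of 0.04. Of the 9765 genes with a window 222 were called higher (2.27%) and 134 lower (1.37%), with a median of 0.02. As 4 of the 11 are members chosen on this contrast, nothing is read from the difference in shares. The letters GGAATG or their reverse complement, the core bound by TEAD factors, were in the windows of 10 of the 42 genes (23.8%), against 14.4% of the tested genes. A match is a description of the sequence and not a measured site.

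Filamin A and the actinins crosslink filaments into networks and bundles. Flna was at 591, 565, 487 and 467 CPM in WT and 1238, 998, 1145 and 1104 CPM in KO (log2 fold change 1.09, SE 0.13), and all KO libraries stood clear of WT. Actn1 was at 138, 139.6, 174 and 143 CPM in WT and 359, 224, 306 and 204 CPM in KO (log2 fold change 0.88, SE 0.18). It was called, but not when the pair WT replicate 2 and KO replicate 1 was left out (edgeR adjusted p = 0.0801). Actn4, the second non-muscle actinin, had 658 ± 80.3 CPM across WT and 924 ± 146 CPM across KO (SD, n = 4 each) with no overlap between the groups, and was not called (log2 fold change 0.49, SE 0.14).

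**Figure D3:**
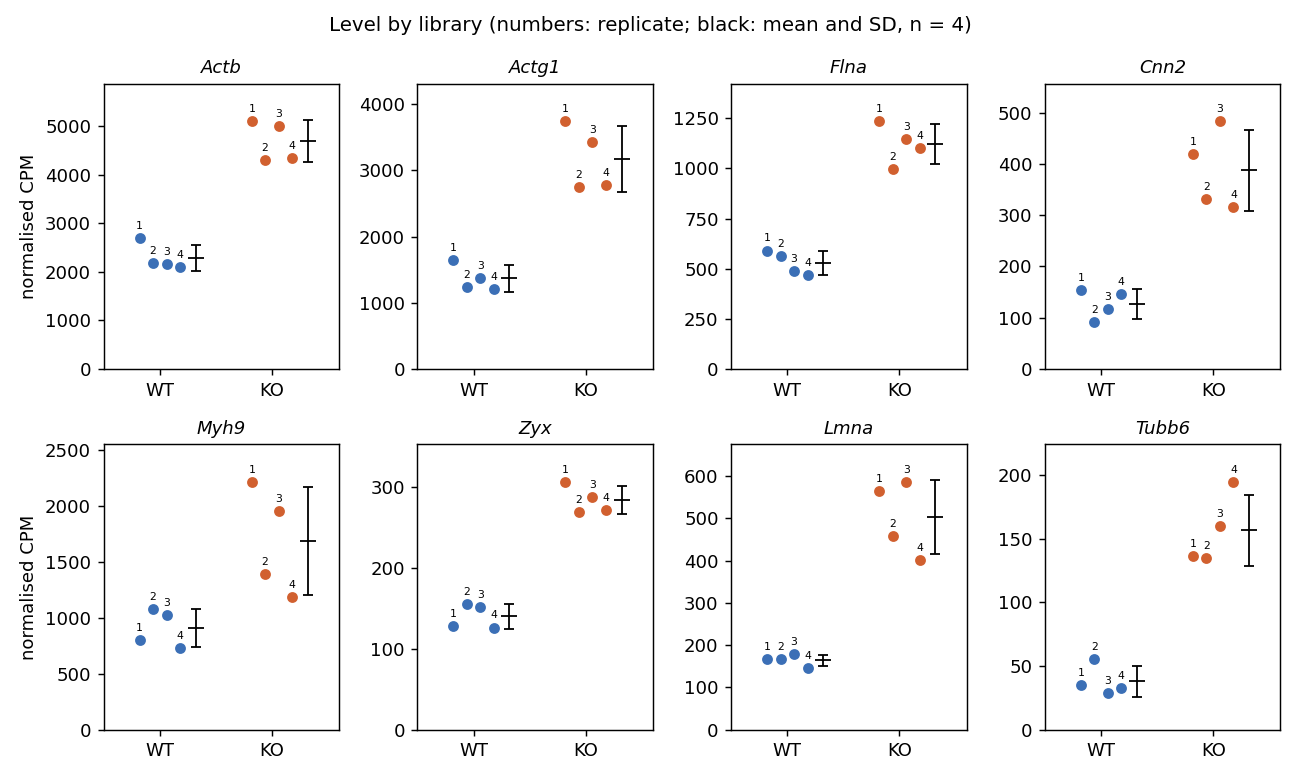
Normalised CPM of 8 of the called genes in each library, with the replicate number beside each point and the mean and SD of 4 libraries in black. No KO point lies within the WT range, and all of these genes but Tubb6 are highest in KO replicates 1 and 3.

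Of the genes that take filaments apart and handle monomers 3 of 5 were called. Cfl1, cofilin, which severs filaments, was at 681, 712, 810.3 and 633 CPM in WT and 1335, 1194, 1263 and 1263 CPM in KO (log2 fold change 0.83, SE 0.12). Its cofactor Wdr1 was at 238, 248, 237 and 175 CPM in WT and 401, 334, 417 and 383 CPM in KO (log2 fold change 0.77, SE 0.14). Cap1, which returns monomers to the pool, was at 231, 197, 214 and 235 CPM in WT and 389, 359, 358 and 309.5 CPM in KO (log2 fold change 0.69, SE 0.13). These 3 genes were called, and all KO libraries of each lay above all WT libraries. Pfn1, profilin, which feeds monomers to growing ends, had 443 ± 70.9 CPM across WT and 605 ± 87.9 CPM across KO, and Tmsb10, a thymosin that holds monomers back, had 338 ± 28.4 CPM across WT and 391 ± 130.1 CPM across KO. Neither was called, and both overlapped between the groups, with KO replicate 1 the lowest KO library of each. The Cfl1, Pfn1 and Tmsb10 counts can include or lose reads shared with pseudogenes.

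The Arp2/3 complex starts branches on filaments, and capping protein closes their ends. Of the 5 subunit genes in the set only Arpc2 was called, at 360.0, 338, 341 and 339 CPM in WT and 646, 463, 600.1 and 516 CPM in KO (log2 fold change 0.69, SE 0.13). Arpc4 (log2 fold change 0.65, SE 0.19), Arpc3 (0.40, SE 0.15), Arpc1b (0.33, SE 0.13) and the capping gene Capzb (0.39, SE 0.14) were not called, although all KO libraries of each lay above all WT libraries. Arpc5 overlapped between the groups, at 263 ± 27.7 CPM across WT and 254 ± 35.3 CPM across KO. A list of actin nucleation genes held 4 further subunit genes. Actr3 was called higher, from 261 ± 39.3 to 441 ± 23.2 CPM (edgeR adjusted p = 0.00461). Actr2 was at 265 ± 14.6 CPM across WT and 342 ± 30.4 CPM across KO (edgeR adjusted p = 0.138). Arpc1a, at 98.3 ± 18.6 CPM across WT and 102 ± 10.6 CPM across KO, and Arpc5l, at 47.7 ± 8.94 CPM across WT and 40.3 ± 11.9 CPM across KO, overlapped between the groups and were not called; both were named after their values were seen.

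Non-muscle myosin II is built from heavy chains, regulatory light chains and an essential light chain. Myh9, the main heavy chain of these cells, was at 807, 1079.6, 1025 and 732 CPM in WT and 2221, 1391, 1961 and 1187 CPM in KO (log2 fold change 0.89, SE 0.19). KO replicates 1 and 3 were far above the WT range and KO replicate 4 just above it. The call was lost without WT replicates 1 or 4 (edgeR adjusted p = 0.0619 and 0.0615) and without KO replicate 3 (0.0561). Myh10, the second heavy chain, had 53.9 ± 19.3 CPM across WT and 71.5 ± 9.97 CPM across KO and was not called. It made up 6.73 ± 1.54% of both heavy chains per kilobase in WT and 5.23 ± 1.46% in KO.

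Myl6, the essential light chain, was at 490.4, 361, 449.5 and 409 CPM in WT and 732, 664, 737 and 632 CPM in KO (log2 fold change 0.69, SE 0.13), with no overlap. The neighbours Myl12a and Myl12b encode near-identical regulatory light chains and lie 2.77 kb apart on chromosome 17 (Myl12a at chr17:70993656-71002878, Myl12b at chr17:70973133-70990890, GRCm38). Myl12a was at 584, 569, 604 and 517 CPM in WT and 1131, 778, 1098 and 769 CPM in KO (log2 fold change 0.73, SE 0.15). Myl12b was at 446, 419, 421 and 462 CPM in WT and 389, 398, 443 and 449.9 CPM in KO (log2 fold change -0.06, SE 0.12). Myl12a was called, with KO replicates 1 and 3 highest, while the Myl12b groups overlapped. The share of Myl12a in the pair per kilobase was 51.9, 52.8, 54.2 and 48.02% in WT and 70.6, 61.7, 67.1 and 58.5% in KO, without overlap. Reads that match both genes may have been dropped or split, which leaves the split between Myl12a and Myl12b uncertain. When the pair WT replicate 2 and KO replicate 1 was left out, Myl12a was no longer called (edgeR adjusted p = 0.0618).

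Tropomyosins run along actin filaments and govern which proteins reach them. Tpm4, the most abundant of the 4 per kilobase, was at 746, 842, 622 and 783 CPM in WT and 1417, 988, 1232 and 1127 CPM in KO (log2 fold change 0.67, SE 0.14). Tpm1 was at 195, 134, 199 and 151 CPM in WT and 323, 336, 349.8 and 205 CPM in KO (log2 fold change 0.84, SE 0.19), with KO replicate 4 only just above the highest WT library. The call of Tpm1 was lost without any of 4 libraries, namely WT replicates 2 and 4 (edgeR adjusted p = 0.0603 and 0.0651) and KO replicates 2 and 3 (0.0553 and 0.0689), and when the pair WT replicate 2 and KO replicate 1 was left out (0.112). Tpm3 had 308 ± 43.9 CPM across WT and 358 ± 55.9 CPM across KO and was not called, and its share of the family per kilobase was 12.02 ± 1.16% in WT and 9.15 ± 1.78% in KO, all KO libraries below WT. Tpm2, a muscle-type gene, was at 15.6, 5.43, 9.12 and 20.4 CPM in WT and 0, 14.4, 18.8 and 6.30 CPM in KO, overlapped between the groups and was not called. The 0 counts in KO replicate 1 allow up to 0.281 CPM by a floor of 3 counts.

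Calponins and transgelins bind filaments beside tropomyosin. Cnn2, a calponin found in non-muscle cells, was at 154, 90.8, 117 and 146 CPM in WT and 419, 331, 484 and 315 CPM in KO (log2 fold change 1.61, SE 0.19). Tagln2 was at 441, 416, 483 and 468 CPM in WT and 986, 676, 839.6 and 857 CPM in KO (log2 fold change 0.89, SE 0.13). Cnn3, the most abundant calponin in WT, was at 654, 735, 756 and 697 CPM in WT and 499.7, 641, 583 and 671 CPM in KO (log2 fold change -0.25, SE 0.13). The first pair was called higher with KO replicate 3 highest for Cnn2 and KO replicate 1 for Tagln2, and Cnn3 was not called, with KO replicates 1, 2 and 3 below the WT range and KO replicate 4 inside it. Cnn2 made up 22.5, 13.2, 15.99 and 20.5% of both calponins per kilobase in WT and 50.9, 38.96, 50.6 and 36.7% in KO, so that the least shifted KO library held a larger Cnn2 share than any WT library. The smooth muscle calponin Cnn1 was at 3.77 ± 3.12 CPM across WT and 2.55 ± 2.24 CPM across KO. Acta2 and Tagln, both among the smooth muscle and pericyte markers, overlapped between the groups (67.6 ± 47.5 and 64.7 ± 37.5 CPM for Acta2). Other smooth muscle genes of the actin and myosin families are not covered by this. The promoter of Cnn2 is shown as that of the called gene with a CArG box and the largest change. Its 250 bases before the start, on the plus strand at chr10:79988350-79988599 (GRCm38.p6, RefSeq), have the box in capitals.
Cnn2: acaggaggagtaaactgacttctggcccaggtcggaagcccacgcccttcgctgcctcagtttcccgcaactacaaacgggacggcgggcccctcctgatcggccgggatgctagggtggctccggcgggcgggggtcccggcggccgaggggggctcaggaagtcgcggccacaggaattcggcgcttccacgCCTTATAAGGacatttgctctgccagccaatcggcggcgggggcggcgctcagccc

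Among the tubulins the isotypes differed. Tubb6, a beta-tubulin that was per kilobase the rarest of the 5 in WT, was at 35.1, 55.7, 28.9 and 32.5 CPM in WT and 136, 135, 159.8 and 195 CPM in KO (log2 fold change 2.04, SE 0.23), the largest fitted change of the 47 genes. Tubb5, the main beta-tubulin, was at 1040.4, 1054, 1078 and 990.3 CPM in WT and 1076, 1479, 1382 and 2111 CPM in KO (log2 fold change 0.54, SE 0.16) and was not called. KO replicate 1 of Tubb5 lay inside the WT range and KO replicate 4 was 2111 CPM, far above the other libraries. Tubb2a was at 273, 188, 181 and 212 CPM in WT and 169, 227, 204 and 256 CPM in KO (log2 fold change 0.00, SE 0.17). Its neighbour Tubb2b, 48.7 kb away on chromosome 13, was at 80.9, 54.9, 70.3 and 89.4 CPM in WT and 71.6, 121, 121 and 114 CPM in KO (log2 fold change 0.53, SE 0.22), and Tubb4b was at 193, 144, 133 and 164 CPM in WT and 151, 192, 157 and 228 CPM in KO (log2 fold change 0.20, SE 0.18). These 3 were not called and overlapped between the groups. Of the beta-tubulin pool per kilobase Tubb6 made up 2.31, 4.16, 2.18 and 2.38% in WT and 9.53, 7.05, 8.92 and 7.74% in KO, and Tubb2a 23.1 ± 2.93% and 17.1 ± 1.20%, both without overlap. The pool itself was 569 ± 37.6 CPM per kilobase in WT and 785 ± 185 in KO. How reads that match several beta-tubulin genes were counted is not given, which leaves the shares within the pool uncertain.

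Tuba1a, Tuba1b and Tuba1c, alpha-tubulin genes of near-identical coding sequence, lie together on chromosome 15. Tuba1b was called, at 151, 141, 133 and 131 CPM in WT and 204, 217, 224 and 342 CPM in KO (log2 fold change 0.83, SE 0.17), with KO replicate 4 well above the rest. Tuba1a, 15.3 kb from it, was at 601, 450.0, 554 and 476 CPM in WT and 413, 571, 489 and 704 CPM in KO (log2 fold change 0.06, SE 0.16), and Tuba1c at 12.3, 13.1, 0.149 and 26.01 CPM in WT and 18.4, 25.1, 27.3 and 42.5 CPM in KO (log2 fold change 1.13, SE 0.84). Neither was called, and for Tuba1c WT replicate 3, with 1 count, stood far below the other libraries. The share of Tuba1b in the 3 genes per kilobase was 19.2, 22.7, 18.7 and 20.3% in WT and 31.4, 26.1, 29.6 and 30.8% in KO, without overlap. Reads that match more than 1 of these copies may have been dropped or split, which leaves the split among Tuba1a, Tuba1b and Tuba1c uncertain. Of 33 other tubulin, folding and microtubule genes tested, 0 were called by edgeR, with a median log2 fold change of 0.15 (6 had an unadjusted p under 0.05, DESeq2 called 0 and limma voom 0).

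**Figure D4:**
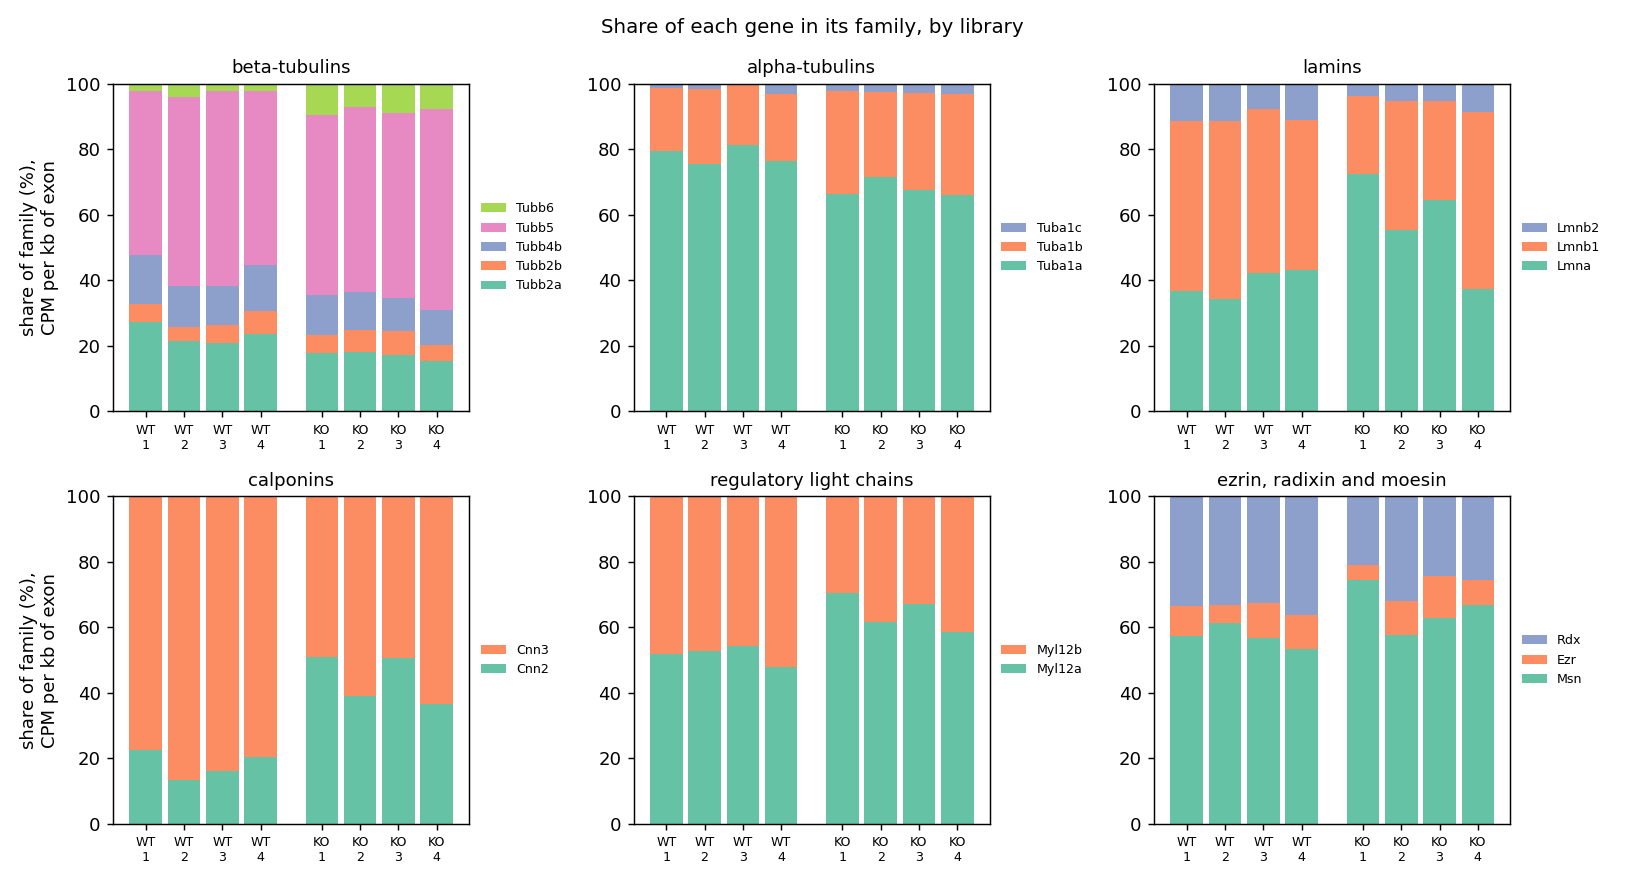
Share of each gene in the summed CPM per kilobase of its family, for 6 families in the 8 libraries. The shares of Tubb6, Tuba1b, Cnn2 and Myl12a are larger in every KO than in any WT library, and the Lmna share of KO replicate 4 falls within the WT range.

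Vim, vimentin, the intermediate filament of endothelial and mesenchymal cells, was at 2244, 2518, 1842 and 2404 CPM in WT and 3608, 3687, 3388 and 4145 CPM in KO (log2 fold change 0.72, SE 0.12) and was called. Lmna, which encodes the A-type lamins, was at 166, 167, 178 and 146 CPM in WT and 564, 457, 587 and 402 CPM in KO (log2 fold change 1.61, SE 0.15). Both stood clear of WT in every KO library, and the lowest KO value of Lmna was 402 CPM against a highest WT value of 178 CPM. The B-type genes Lmnb1 (111 ± 23.9 CPM across WT and 174 ± 86.2 CPM across KO) and Lmnb2 (32.2 ± 8.04 CPM across WT and 39.7 ± 20.4 CPM across KO) were not called and overlapped. For both, KO replicate 4 was the highest of all 8 libraries and KO replicate 1 the lowest in KO. Lmna made up 36.7, 34.1, 42.02 and 43.05% of the 3 lamins per kilobase in WT and 72.4, 55.3, 64.4 and 37.3% in KO. KO replicates 1 to 3 were above the WT range and KO replicate 4 within it. With the longest transcript as the length in place of all exons the Lmna share was 46.8 ± 4.48% in WT and 64.6 ± 14.3% in KO.

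Moesin, ezrin and radixin tie actin to the plasma membrane. Msn, moesin, the main one in these cells, was at 1150.5, 1406, 1175 and 1097 CPM in WT and 2509, 1518, 1848 and 1845 CPM in KO (log2 fold change 0.68, SE 0.15), with KO replicate 1 highest. It was called, but not without WT replicate 3 (edgeR adjusted p = 0.0518) or WT replicate 4 (0.0626). Rdx, radixin, had 522 ± 33.98 CPM across WT and 543 ± 47.05 CPM across KO and Ezr, ezrin, 97.03 ± 21.8 CPM across WT and 130.4 ± 49.9 CPM across KO, and both overlapped and were not called. Of 9 genes for their membrane partners 0 were called by edgeR, with a median log2 fold change of -0.03 (0 had an unadjusted p under 0.05, DESeq2 called 0 and limma voom 0).

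In the focal adhesion group the results were divided. Zyx, zyxin, which gathers at adhesions under tension, was at 128, 156, 152 and 126 CPM in WT and 307, 269.6, 288 and 272 CPM in KO (log2 fold change 1.02, SE 0.14). Vcl, vinculin, which links talin to actin, was at 219.7, 211, 269 and 195 CPM in WT and 457, 296, 434 and 300.4 CPM in KO (log2 fold change 0.74, SE 0.17), with KO replicates 1 and 3 apart from KO replicates 2 and 4. Its call was lost without any of 5 libraries, namely WT replicates 1, 2 and 4 (edgeR adjusted p = 0.0583, 0.0671 and 0.0825) and KO replicates 1 and 3 (0.0597 and 0.0898), and when the pair WT replicate 2 and KO replicate 1 was left out (0.133). Tln1, talin, which activates integrins, had 635 ± 64.4 CPM across WT and 715 ± 21.2 CPM across KO, and Pxn, paxillin, an adaptor of young adhesions, 341 ± 55.5 CPM across WT and 294 ± 61.4 CPM across KO. Neither was called, and both overlapped between the groups. The promoter of Vcl carries the same box letters as that of Cnn2, farther from the start. Its 250 bases before the start, on the plus strand at chr14:20929148-20929397 (GRCm38.p6, RefSeq), have the box in capitals.
Vcl: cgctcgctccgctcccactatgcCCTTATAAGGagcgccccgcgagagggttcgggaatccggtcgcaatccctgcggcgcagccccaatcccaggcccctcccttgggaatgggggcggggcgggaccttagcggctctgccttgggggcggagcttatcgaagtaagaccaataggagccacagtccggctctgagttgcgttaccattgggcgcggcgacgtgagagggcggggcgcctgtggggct

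Other genes of these pathways, from 10 lists that hold no member, gave 12 genes called higher and 4 called lower of 229 tested. Over all genes tested 2.25% were called higher and 1.39% lower. A count of 1 called gene in a list, here or below, is not read as a result about that list. These lists were drawn up with earlier results of these data known. Of 33 genes of actin turnover, capping and bundling 5 were called higher and 0 lower, with a median log2 fold change of 0.09. Pls3, plastin 3, a bundling protein, rose from 200.1 ± 62.6 to 563 ± 197 CPM (edgeR adjusted p = 0.0138), Fscn1, fascin, from 245 ± 24.9 to 447 ± 129 CPM (0.0103) and Vasp, which lengthens filaments, from 137 ± 29.3 to 252 ± 38.4 CPM (0.009). Vasp was not called in 2 of 21 alternatives, with a highest edgeR adjusted p of 0.214. Coro1c, named after its value was seen, was also among them, and its call was lost in 15 of 21 alternatives. Of 25 nucleation genes 1 rose, Actr3, and 1 fell: Daam1, a formin, from 193 ± 26.2 to 116 ± 8.82 CPM (edgeR adjusted p = 0.0116, lost in 3 of 21 alternatives, with a highest value of 0.0651). The median of that list was 0.04.

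Of 16 integrin genes 1 rose: Itgb1, the beta-1 chain shared by most matrix receptors, at 1828, 1814, 1948 and 1623 CPM in WT and 3784, 2489, 3122 and 2573 CPM in KO (edgeR adjusted p = 0.00603), with a list median of 0.31. Itga3 (316 ± 42.4 CPM across WT and 469 ± 109.9 CPM across KO), Itgb4 (39.01 ± 8.06 CPM across WT and 78.5 ± 32.03 CPM across KO) and Itgb5 (91.6 ± 18.8 CPM across WT and 54.5 ± 12.3 CPM across KO) did not pass. Of 36 focal adhesion adaptors and kinases 1 rose, Tgfb1i1, a paxillin relative, from 153 ± 51.3 to 270.3 ± 40.1 CPM (edgeR adjusted p = 0.0481, lost in 15 of 21 alternatives), with a median of 0.05. Of 18 genes of the nuclear envelope and of other intermediate filaments 1 rose, Nes, nestin, from 373 ± 70.9 to 771 ± 191 CPM (edgeR adjusted p = 0.00378), with a median of 0.06. Of 8 septin genes 0 were called by edgeR, with a median of 0.08 (3 had an unadjusted p under 0.05, DESeq2 called 0 and limma voom 0).

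Genes of SRF, its cofactors, YAP and their targets were split. Of 21 tested 1 rose and 3 fell, with a median log2 fold change of -0.11. This list holds the factors themselves as well as targets. It leaves out every member, and with them called genes that carry a CArG box, such as Actg1, Cnn2 and Vcl. Its median and counts therefore do not describe SRF or YAP targets as a class. Ccn2, a target of YAP and SRF cofactors, was at 59.1, 76.00, 88.4 and 74.8 CPM in WT and 344, 234, 278 and 91.7 CPM in KO (edgeR adjusted p = 0.018), and was not called in 8 of 21 alternatives. Egr1, an immediate early gene under SRF and its ETS partners, fell from 617 ± 134 to 275 ± 42.3 CPM (edgeR adjusted p = 0.00101), Amotl2, a YAP target, from 324 ± 60.8 to 171 ± 24.6 CPM (0.00385) and Jun from 1167 ± 81.1 to 824 ± 133 CPM (0.0407, lost in 10 of 21 alternatives). Srf itself, named outside the rule of smallest p, was at 65.6, 93.9, 46.04 and 49.2 CPM in WT and 107, 93.7, 121 and 88.2 CPM in KO and was not called (edgeR adjusted p = 0.134).

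The order of the KO libraries differed between sets of members. Of the 20 called genes other than tubulins KO replicate 1 was the highest KO library for 14 and KO replicate 3 for 5, and KO replicate 2 was the lowest for 11 and KO replicate 4 for 8. Of the 8 tubulins and 2 B-type lamins KO replicate 4 was the highest for 9 and KO replicate 1 the lowest for 9. Most of these were not called, and the order was not particular to them. Of all 25 members not called KO replicate 4 was the highest for 16 and KO replicate 1 the lowest for 16. Over all 12689 genes tested KO replicate 1 was the highest for 3748 and the lowest for 5023, and KO replicate 4 the highest for 3262. Proliferation markers, 10 genes such as Top2a and Cdk1, summed to 304, 552, 379.7 and 338 CPM in WT libraries 1 to 4, against 407, 697, 612 and 1139.8 CPM in KO libraries 1 to 4, with 1 gene of the 10, Plk1, called higher. The alveolar epithelial sum was lowest in WT replicate 2 (3400.3 CPM) and KO replicate 1 (3328 CPM). The part of either in the orders above was not tested. With both of these libraries left out 18 of the 22 members were still called, and without any single library 18 to 22. Among members with a mean of at least 100 CPM, 41 of the 47, the median coefficient of variation was 12.1% in WT and 15.6% in KO, beside 15.5% and 14.04% for the 2234 genes tested at that level.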

How the data were processed

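RNA of 8 sorted libraries was sequenced. The authors deposited 1 table of read counts per gene, made with TopHat and HTSeq on mm10, per the submitters' processing notes. The sources used here do not give the annotation release, the strand setting or the treatment of reads with several matches. Of 43430 gene IDs 42462 were paired with a symbol by GENCODE. Counts were tested as deposited with edgeR 4.0.16 in R 4.3.3 (TMM scaling, filterByExpr with a minimum count of 10 and a minimum total of 15, robust quasi-likelihood test of KO against WT over all 8 libraries, Benjamini-Hochberg adjustment over 12689 genes, threshold 0.05). Fold changes are on the log2 scale with the SE from the fit, and CPM are scaled by TMM. The test was also run on simulated data, with an outcome that is not reported here. Levels per kilobase used the union of exons in GENCODE, which may differ from the authors' annotation. DESeq2 1.42.0, limma 3.58.1 (voom), other scalings, other filters, a replicate block, length and GC trends (mgcv 1.9.3) and leaving out each library were the alternatives, and 3 were chosen after seeing the data. The gene members, the pathway lists and the marker lists (endothelial, smooth muscle and pericyte, fibroblast, alveolar epithelium, mesothelial and ciliated, leukocyte, platelet and erythroid, proliferation) were chosen with earlier results of these data known. Genes named from the pathway lists were up to 4 per list with the smallest p. Total counts of 6407924 to 13981329 per library set the precision, and no interval for counting error was computed. Some genes of the pathway lists are counted in the totals and not reported here.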

Additional observations from a re-analysis of the deposited data

Results flagged for a closer look

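In 11 of 218 groups of 4 libraries examined, 1 library stood apart from the other three by Dixon's ratio at the 95% level, and chance flags about 1 in 20. In WT these were Actb at 2696 CPM in replicate 1, where the next library was at 2183 CPM, Actn1 at 174 CPM in replicate 3, Wdr1 at 175 CPM in replicate 4, the lowest, and Arpc2 at 360.0 CPM in replicate 1. In KO, Arpc3 (370 CPM) and Tuba1b (342 CPM) were high in replicate 4, and Rdx (613 CPM) in replicate 2. Tubb2b was low in KO replicate 1, at 71.6 CPM. Of the pathway lists Itgb4 was high in KO replicate 1 at 126 CPM, against 65.4 CPM in the next library, and Camsap2 was low there at 83.1 CPM. The share of Tubb6 in the beta-tubulins per kilobase was 4.16% in WT replicate 2, above the other WT libraries and below every KO library.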

How the results depend on the processing

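The 47 members were refitted under 21 alternatives, and of 987 recomputed fold changes 56 moved by at least their SE. None of the 462 of called members changed sign. Among members not called 30 did, in 8 genes (Tmsb10, Arpc5, Tpm2, Tuba1a, Tubb2a, Tubb4b, Lmnb2 and Rdx). The planned removal of a length and GC trend, as first run, did not hold each library's trend at a mean of 0 and so also changed the library scaling. Under it 5 members were called higher, all genes gave 60 higher and 99 lower, and the pathway lists 2 higher and 2 lower. The centred trend (295 higher over all genes) and a trend from genes over 10 CPM, both chosen after seeing that outcome, called 22 members. The SE of the members that lost their call was also larger under the first form. The part of scaling, of the larger SE and of length or GC in the difference was not tested further. Under the other 20 alternatives 18 to 22 of the 22 were called, and 16 in each of the 20. Actn4, Arpc4 and Tubb5 were called in some. Over all genes 285 higher and 176 lower became 450 and 297 with edgeR's newer fit (legacy = FALSE) and 458 and 404 with DESeq2. Leaving out single libraries gave 173 to 259 higher and 97 to 187 lower, with the lowest values without KO replicate 3. The pathway lists gave 20 higher and 10 lower with DESeq2, 7 lower with legacy = FALSE, 7 higher when the pair WT replicate 2 and KO replicate 1 was left out (chosen after seeing the data), and 8 to 11 higher and 2 to 6 lower without single libraries, the lowest lower count without KO replicate 2. Uqcrq stayed uncalled in each, at -1.69 to -1.06 without single libraries. Members called ranged from 18 to 22 without single libraries. With a replicate block 22 members and 338 genes were called. Same-numbered libraries did not deviate together (correlations of -0.10 to 0.00), and 0 of 4 WT libraries correlated best with the KO library of their number.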

Other observations

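In the KO libraries the remaining Uqcrq level and the actin levels were ordered as follows. Uqcrq was at 1.59, 15.6, 9.57 and 13.97 CPM in KO replicates 1 to 4, Actg1 at 3749, 2746, 3428 and 2776 CPM and Myh9 at 2221, 1391, 1961 and 1187 CPM. KO replicates 1 and 3 had the lower Uqcrq values and the higher Actg1 and Myh9 values. Myh9 did not follow the full order, as Uqcrq was highest in KO replicate 2 and Myh9 lowest in KO replicate 4. Actg1 and Myh9 were picked out of the 47 members, and other members had other orders. Over all 47, KO replicate 1 was the highest KO library for 16 and the lowest for 17, and KO replicate 4 the highest for 19. The called genes Vim, Tuba1b and Tubb6 were highest in KO replicate 4. Uqcrq in KO replicate 1 rests on 17 counts. With 4 libraries no correlation was computed, and Uqcrq and the alveolar epithelial sum were both lowest in KO replicate 1. Among KO libraries that sum was highest in replicate 3 (14825 CPM).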
